A study of Mus musculus with 9 samples.

Results

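The 9 genes described here, Tjp1, Jam3, Esam, Gja1, Pcdh7, Krt80, Alcam, Ptprm and Neo1, encode proteins of cell junctions and cell adhesion. They were taken by name from the 12393 genes of the array that have a probe set naming 1 gene, and 17 probe sets represent them. They were chosen by their measured differences between the groups on these same arrays, so those differences are given as a description and carry no test. The array is an Affymetrix mouse expression array whose probe sets each report a signal intensity. The RNA came from C57BL/6 bone marrow cells sorted as KSL, that is bearing c-Kit and Sca-1 but neither lineage markers nor IL7Ra, a gate that holds blood stem cells and early progenitors.

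The study had 3 groups of 3 biological replicates, with 1 array each. In the RUNX1(41-214) group the marrow cells carried a retroviral vector for a fragment of the transcription factor RUNX1, from residue 41 to residue 214, and were taken 4 months after transduction and transplantation. In the Runx1KO group both Runx1 alleles were floxed and an MxCre transgene was present (MxCre+/-). In the control group the same floxed alleles were present without it (MxCre-/-). Runx1KO and control cells were both taken 3 months after poly IC, which switches on the interferon-inducible Mx promoter in blood cells and also in other tissues. The RUNX1(41-214) labels mention no poly IC, and no transplanted cells with an empty vector are among the arrays, so fragment, vector, transplantation and poly IC cannot be told apart in that group. In bulk RNA, fewer cells of a type and less RNA per cell cannot be told apart either.

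Tight junctions seal neighbouring cells together through membrane proteins that are tied to actin by cytoplasmic scaffolds such as ZO-1, the product of Tjp1. Gap junctions are channels of connexins that let small molecules pass between cells, and cadherins, nectins and immunoglobulin-type molecules hold membranes together. Blood stem cells do not form epithelial sheets, but they use several of these proteins to contact niche cells, and Esam, Jam3 and Alcam have been described on the surface of mouse blood stem cells.

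The promoters of the 9 genes were looked up in a RefSeq table (GRCm38.p6), which held 6 of them: Tjp1, Gja1, Pcdh7, Alcam, Ptprm and Neo1. The 250 bases before the listed start are shown for 3 genes that stand for the patterns found: Tjp1, higher in both altered groups, and Gja1 and Alcam, lower in RUNX1(41-214) cells. The Tjp1 window is at chr7:65371245-65371494 on the minus strand, at a listed start that lies inside the annotated gene. The Gja1 window is at chr10:56377050-56377299 on the plus strand, and the Alcam window is at chr16:52453082-52453331 on the minus strand. Each is written 5′ to 3′ on the strand of its gene, and capitals mark TGTGG or TGAGTCA on either strand.
Tjp1: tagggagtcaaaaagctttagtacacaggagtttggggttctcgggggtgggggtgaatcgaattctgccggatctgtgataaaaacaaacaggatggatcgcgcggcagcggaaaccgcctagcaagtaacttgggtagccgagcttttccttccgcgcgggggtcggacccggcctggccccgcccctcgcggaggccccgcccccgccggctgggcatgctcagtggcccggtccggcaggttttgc
Gja1: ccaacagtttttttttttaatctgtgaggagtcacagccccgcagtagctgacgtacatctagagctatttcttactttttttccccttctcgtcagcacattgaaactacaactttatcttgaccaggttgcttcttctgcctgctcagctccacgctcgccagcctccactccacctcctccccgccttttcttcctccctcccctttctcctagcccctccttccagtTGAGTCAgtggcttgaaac
Alcam: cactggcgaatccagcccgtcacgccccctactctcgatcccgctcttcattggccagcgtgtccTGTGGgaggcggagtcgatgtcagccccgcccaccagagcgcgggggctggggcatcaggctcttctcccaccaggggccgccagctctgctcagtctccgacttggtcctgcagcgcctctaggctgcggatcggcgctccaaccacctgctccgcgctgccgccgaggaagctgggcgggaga

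The DNA-binding Runt domain, which the fragment contains, is known to bind TGTGGT and TGCGGT. Neither hexamer was found on either strand in any of the 6 windows. One or the other was found in 18.6% of all 32851 promoter windows of the same length. With only 6 windows, nothing is read from the absence. The shorter core TGTGG, which lies within TGTGGT, was found in the Alcam and Ptprm windows and in 49.3% of all windows. In Alcam it stands at -185 to -181 from the start. TGAGTCA, the motif of AP-1 factors, was found at -19 to -13 in Gja1 and in 4.46% of all windows. The windows of Tjp1, Ptprm, Alcam and Neo1 were rich in G and C (63.2%, 81.2%, 69.2% and 83.2%), where the median of all windows was 52.4%. A match is a description of letters, and the absence of one covers these windows alone.

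Some facts of the arrays bear on all results. The deposited signals ran from 0.53 to 20215, with array medians of 125 to 147. The targeted gene Runx1 had signals of 1815, 1958 and 2093 in RUNX1(41-214) cells, 2417, 3476 and 2563 in Runx1KO cells and 1701, 931 and 1475 in control cells, and it does not check the deletion because the position of its probes relative to the deleted part is not known here. The log2 ratio of 3′ to 5′ Gapdh control signals, a sign of RNA integrity, was 2.13 in Runx1KO replicate 3 and 1.85 in control replicate 2, and 0.979 to 1.29 in the other 7 arrays. Kit and Cd34, which mark these progenitors, were bright in all groups: on the log2 scale Kit was at 11.72 in RUNX1(41-214) cells, 11.64 in Runx1KO cells and 11.15 in control cells. Against control Kit was at 0.57 ± 0.14, adjusted p = 0.0415 in RUNX1(41-214) and 0.49 ± 0.14, adjusted p = 0.246 in Runx1KO cells. Of 10 KSL markers, 2 rose and 1 fell past an adjusted p of 0.05 in RUNX1(41-214), where 4.28% of all genes passed. In Runx1KO cells 1 rose and 0 fell, where 0.347% of all genes passed. Ly6a, the gene of Sca-1, was not analysed here. Among epithelial markers, 1 of 10 (Krt18) lay above the median gene, and 5 of 10 were above 0 in each comparison with control (median differences 0.02 in RUNX1(41-214) and in Runx1KO cells). Of these, Epcam was at 4.99 in RUNX1(41-214) cells, 5.49 in Runx1KO cells and 5.77 in control cells. Of 11 stromal markers, 1 (Pdgfrb) lay above the median gene, and of 14 endothelial markers 6 did. The endothelial cadherin Cdh5 was at 5.35 in RUNX1(41-214) cells, 5.19 in Runx1KO cells and 5.40 in control cells, while the brightest endothelial markers, Egfl7 and Eng, were at 0.24 ± 0.25, adjusted p = 0.916 and 0.75 ± 0.20, adjusted p = 0.193 in Runx1KO against control. Of the 14, 8 lay above 0 in RUNX1(41-214) (median 0.09, 3 with an unadjusted p under 0.05) and 10 in Runx1KO cells against control (median 0.44, 6 with an unadjusted p under 0.05), and 0 passed the adjusted threshold in either.

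Of the 9 genes, 5 were higher in both altered groups (Tjp1, Jam3, Pcdh7, Krt80 and Ptprm) by several-fold and Esam by less, Gja1 and Alcam were lower in both, and Neo1 was low in RUNX1(41-214) cells alone. In Runx1KO against control, 5 of the 9 lay past the threshold of an adjusted p of 0.05 upward and 1 downward, where 0.234% and 0.113% of all genes tested lay past it in these directions (0.347% in either). In RUNX1(41-214) against control, 5 lay past it upward and 3 downward, where 1.73% and 2.56% of all genes did (4.28% in either). Since these contrasts chose the genes, nothing is read from those shares. The 3 arrays of both groups did not overlap for 6 genes upward and 1 downward in Runx1KO against control, where 5.34% and 5.2% of all genes did not overlap. In RUNX1(41-214) against control this held for 6 upward and 3 downward, where 10% and 10.2% of all genes did not overlap (20.3% in either direction). Both contrasts share the 3 control arrays. Between RUNX1(41-214) and Runx1KO cells, 2 genes did not overlap upward and 3 downward, where 9.67% and 9.13% of all genes did not (18.8% in either), and Neo1 lay past the threshold downward, where 1.06% of all genes did (0.299% upward, 1.36% in either).

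**Figure D1:**
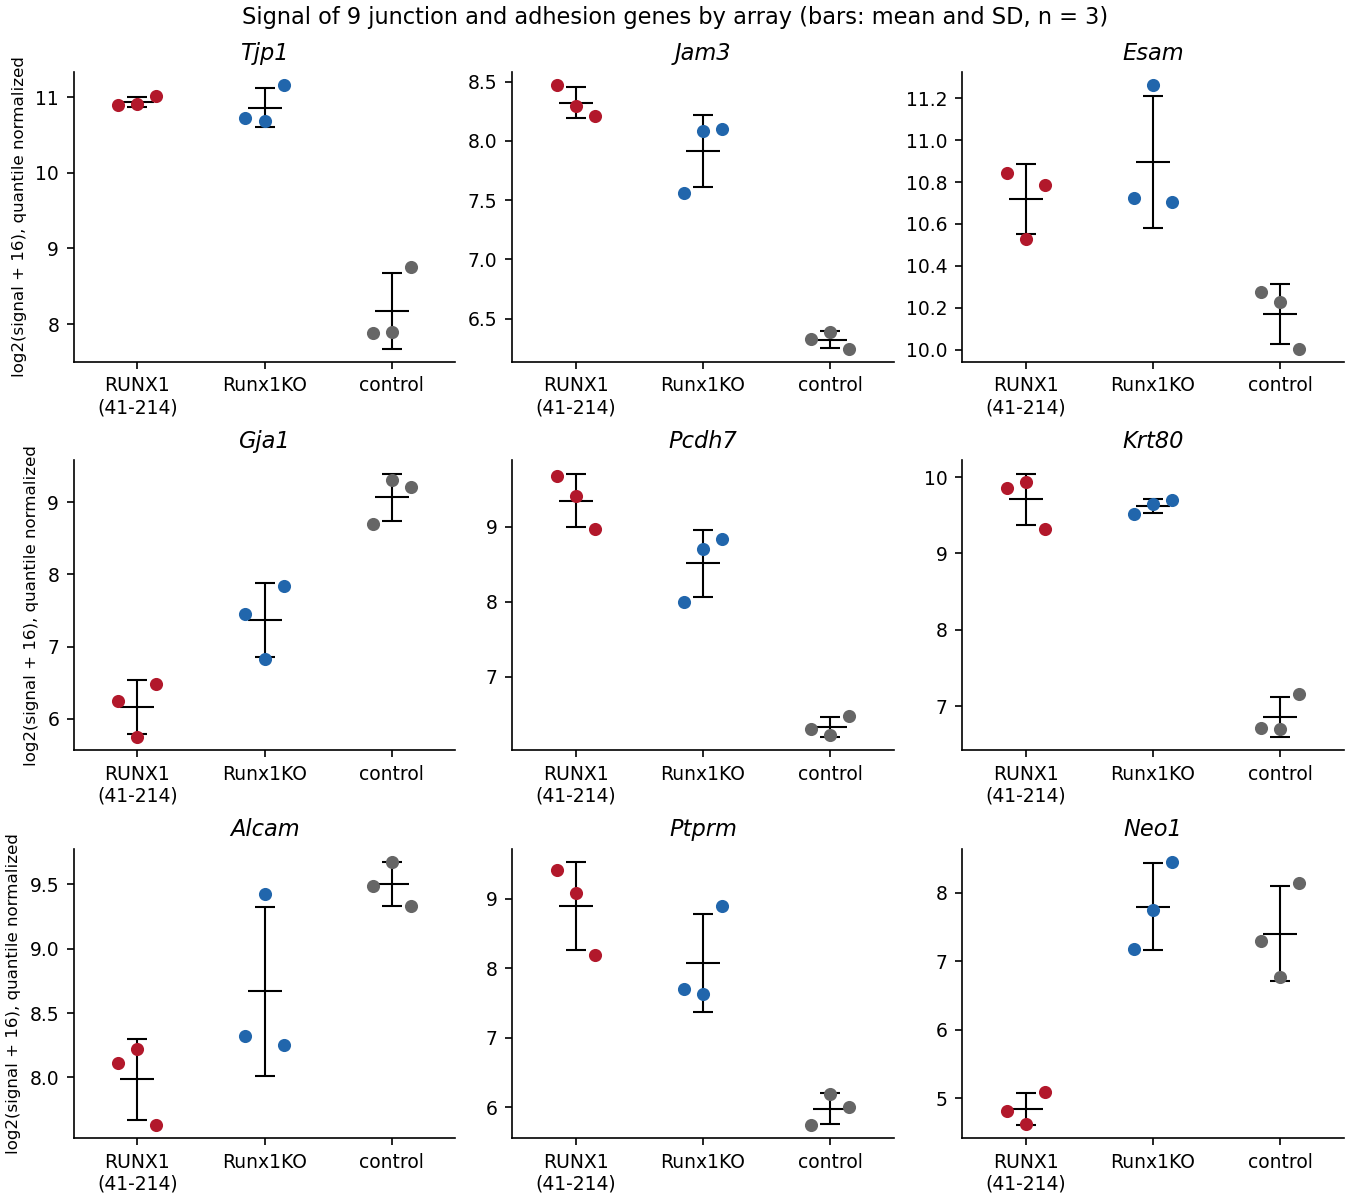
Each panel plots the log2 signal (signal + 16, quantile normalized) of 1 gene on the 9 arrays, with points for arrays and bars for the mean and SD of 3, and each vertical axis has its own range. The Tjp1 and Krt80 panels show RUNX1(41-214) and Runx1KO arrays at like heights above control, the Gja1 panel shows 3 separate levels, and in the Neo1 panel the RUNX1(41-214) arrays lie below all others.

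Among the tight junction members, Tjp1 encodes ZO-1, the scaffold whose PDZ domains bind the tails of junctional membrane proteins. Its deposited signal was 1916, 1911 and 2032 in RUNX1(41-214) cells, 1743, 1685 and 2172 in Runx1KO cells and 227, 225 and 419 in control cells. The altered groups overlapped each other, and every one of their arrays was far above the highest control array. On the scale of log2(signal + 16) after quantile normalization, used for all differences here, the difference from control was 2.77 ± 0.23 in RUNX1(41-214) cells and 2.68 ± 0.23 in Runx1KO cells (fitted difference ± SE, n = 3 arrays a group), and 0.08 ± 0.23 between them. Control replicate 3 was the brightest control array, and without it the differences from control were 3.07 and 2.98.

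Jam3 encodes JAM-C, a junctional adhesion molecule of the immunoglobulin superfamily that binds JAM-B on other cells and ZO-1 inside its own. Its brighter probe set read 326, 280.1 and 276 in RUNX1(41-214) cells, 185, 263 and 252 in Runx1KO cells and 66.8, 70.4 and 62.8 in control cells. All RUNX1(41-214) arrays lay above all Runx1KO arrays, and these above all control arrays. The differences were 2.00 ± 0.21 in RUNX1(41-214) and 1.59 ± 0.21 in Runx1KO cells against control, and 0.41 ± 0.21 between them. A dimmer Jam3 probe set read 49.8, 38.9 and 57.9 in RUNX1(41-214) cells, 41.1, 42.2 and 47.7 in Runx1KO cells and 34.8, 33.3 and 40.7 in control cells, with differences of 0.39 ± 0.18 and 0.23 ± 0.18 from control for RUNX1(41-214) and Runx1KO cells. On the deposited signals RUNX1(41-214) replicate 2 lay below control replicate 3, so the groups overlapped, while after normalization they did not. The mean of both probe sets put Jam3 at 1.19 and 0.91.

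Esam, the endothelial cell-selective adhesion molecule, belongs to the same branch of the immunoglobulin superfamily as the JAM proteins. It read 1845, 1454 and 1728 in RUNX1(41-214) cells, 1735, 2511 and 1558 in Runx1KO cells and 1225, 1180.5 and 1010.5 in control cells. Control arrays were lowest, and the altered groups overlapped. The differences from control were 0.55 ± 0.17 in RUNX1(41-214) and 0.73 ± 0.17 in Runx1KO cells, the smallest of the genes that were higher in both. Runx1KO replicate 2 was the brightest array, and without it the Runx1KO difference was 0.55.

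Gja1 encodes connexin 43, a gap junction channel protein that is abundant in bone marrow stroma and is also made by blood progenitors. Its brightest probe set read 54.0, 36.8 and 73.4 in RUNX1(41-214) cells, 169.8, 98.9 and 208 in Runx1KO cells and 405, 633 and 581 in control cells. The 3 groups did not overlap, with RUNX1(41-214) cells lowest, Runx1KO cells between and control cells highest. The differences from control were -2.91 ± 0.30 in RUNX1(41-214) and -1.70 ± 0.30 in Runx1KO cells, and RUNX1(41-214) lay -1.21 ± 0.30 from Runx1KO. Of its 6 probe sets, 5 showed this order, with differences of -2.91 to -2.68 in RUNX1(41-214) and -1.70 to -1.45 in Runx1KO cells against control. Of these 5, 4 carry the suffix that marks possible cross-hybridisation, and the one without it read 33.5, 30.8 and 38.8 in RUNX1(41-214) cells, 123, 47.8 and 138 in Runx1KO cells and 299.6, 385 and 323 in control cells. The remaining and dimmest probe set read 22.1, 30.6 and 22.8 in RUNX1(41-214) cells, 23.3, 33.0 and 29.7 in Runx1KO cells and 19.0, 17.9 and 28.5 in control cells, and its groups overlapped.

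Pcdh7 encodes a protocadherin, a member of the cadherin superfamily of calcium-dependent adhesion molecules. Its brighter probe set read 804, 638 and 484 in RUNX1(41-214) cells, 251, 413 and 422 in Runx1KO cells and 65.1, 61.2 and 77.5 in control cells. The 3 groups did not overlap, with RUNX1(41-214) cells highest and control cells lowest. The differences from control were 3.01 ± 0.27 in RUNX1(41-214), among these 9 genes the highest, and 2.18 ± 0.27 in Runx1KO cells. RUNX1(41-214) lay 0.84 ± 0.27 above Runx1KO, and 0.58 without Runx1KO replicate 1. The other Pcdh7 probe set was near the bottom of the scale at 6.77, 3.15 and 30.8 in RUNX1(41-214) cells, 2.05, 1.35 and 1.00 in Runx1KO cells and 4.64, 4.60 and 1.00 in control cells, and its groups overlapped with control. With the mean of both probe sets Pcdh7 was at 1.76 in RUNX1(41-214) and 1.02 in Runx1KO cells against control.

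Krt80 encodes a type II keratin, an intermediate filament protein that in epithelia lies near desmosomes. It read 919, 955 and 625 in RUNX1(41-214) cells, 738, 826 and 767 in Runx1KO cells and 92.9, 89.5 and 133 in control cells. The altered groups overlapped each other, and both were far above control. The differences were 2.85 ± 0.22 in RUNX1(41-214) and 2.76 ± 0.22 in Runx1KO cells against control, and 0.09 ± 0.22 between them.

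Alcam, known as CD166, is an immunoglobulin-type molecule that binds itself and the lymphocyte receptor CD6. Its brighter probe set read 248, 264 and 182 in RUNX1(41-214) cells, 319.8, 698 and 279 in Runx1KO cells and 697, 811 and 633 in control cells. RUNX1(41-214) cells were lowest without overlap, and Runx1KO cells overlapped control through replicate 2. The differences from control were -1.51 ± 0.30 in RUNX1(41-214) and -0.83 ± 0.30 in Runx1KO cells, and the Runx1KO value was -1.21 without Runx1KO replicate 2. The other probe set read 76.4, 78.8 and 80.9 in RUNX1(41-214) cells, 162, 180.3 and 154 in Runx1KO cells and 315, 329 and 369.6 in control cells. On it the 3 groups did not overlap, with differences of -1.79 ± 0.19 and -0.97 ± 0.19 from control for RUNX1(41-214) and Runx1KO cells.

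Ptprm encodes a receptor tyrosine phosphatase whose outer part binds the same molecule on a neighbouring cell. It read 664, 505 and 273 in RUNX1(41-214) cells, 202, 186 and 441 in Runx1KO cells and 37.7, 60.1 and 50.1 in control cells. Both altered groups lay above control and overlapped each other, with wide spread within each. The differences from control were 2.92 ± 0.38 in RUNX1(41-214) and 2.10 ± 0.38 in Runx1KO cells. Runx1KO replicate 3, an array with a high Gapdh ratio, was the brightest of its group, and the Runx1KO difference was 1.69 without it. The difference between RUNX1(41-214) and Runx1KO, 0.82 ± 0.38, was 1.24 without that array.

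Neo1 encodes neogenin, a receptor for netrins and repulsive guidance molecules that also takes part in bone morphogenetic protein signalling. It read 11.6, 8.92 and 18.0 in RUNX1(41-214) cells, 138, 205 and 323 in Runx1KO cells and 149, 95.9 and 275 in control cells. The RUNX1(41-214) arrays were all below the other 6, which overlapped across groups. RUNX1(41-214) lay -2.95 ± 0.37 from Runx1KO and -2.56 ± 0.37 from control, on a scale where the offset understates the fold of dim genes. No detection calls were used, so the RUNX1(41-214) signals are not shown to lie above background. Runx1KO against control was 0.39 ± 0.37, and -0.25 without control replicate 2 and Runx1KO replicate 3, the pair of arrays with high Gapdh ratios. Without those arrays the other members kept the sign of both differences from control.

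**Figure D2:**
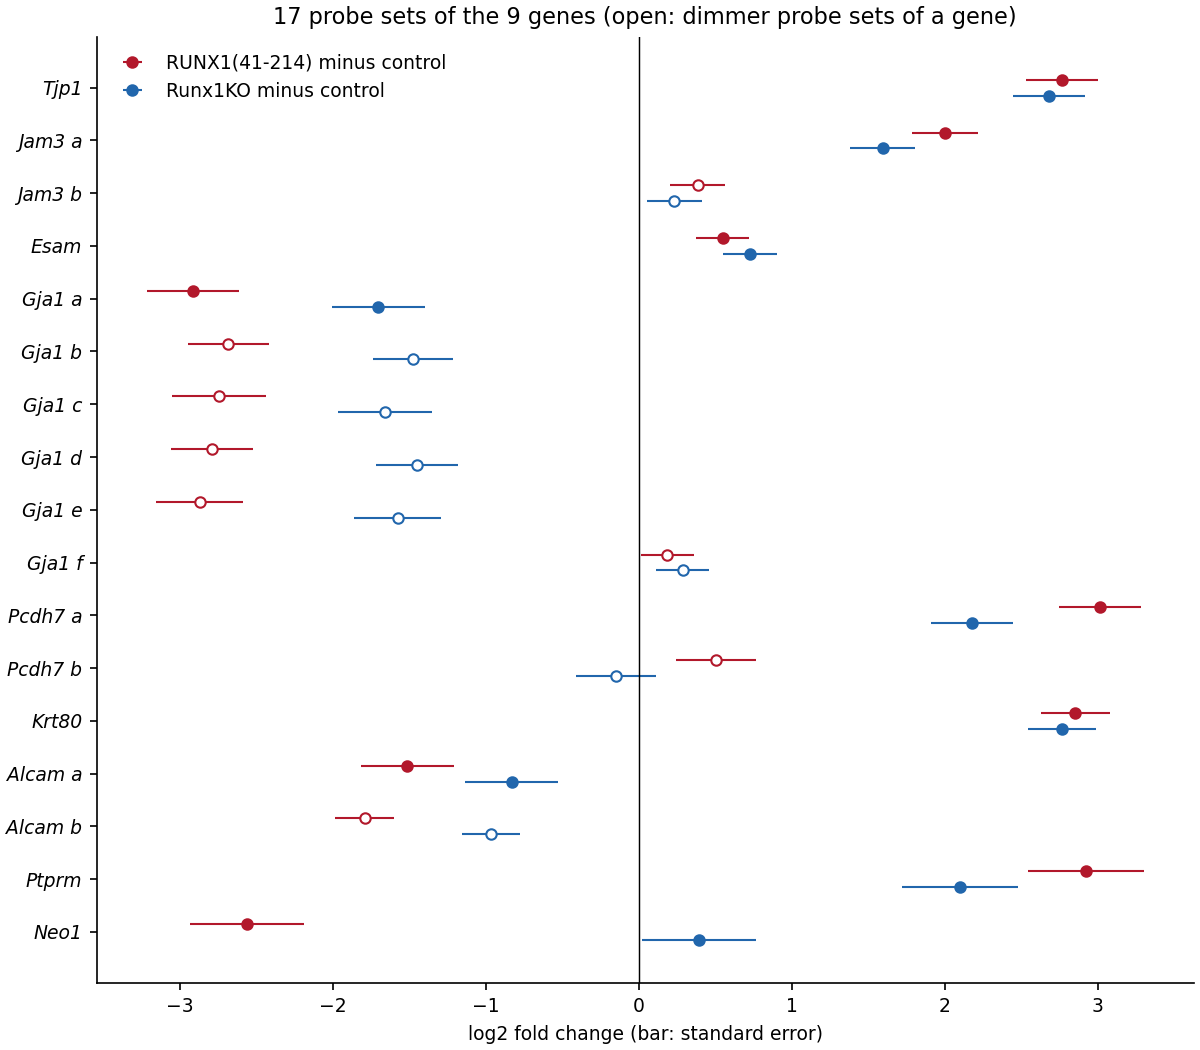
Points give the log2 difference from control of each of the 17 probe sets with its standard error, for RUNX1(41-214) (red) and Runx1KO (blue), filled for the brightest probe set of a gene and open for dimmer ones. The 5 brighter Gja1 probe sets lie together at -2.91 to -2.68 (RUNX1(41-214)) and -1.70 to -1.45 (Runx1KO), and the dim probe sets of Gja1, Jam3 and Pcdh7 lie between -0.15 and 0.50.

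The 9 genes varied together in part. Over the 9 arrays, which share their groups, the Pearson correlation of Tjp1 was 0.983 with Krt80, 0.949 with Jam3, 0.942 with Pcdh7 and 0.908 with Ptprm, and -0.842 with Gja1 and -0.326 with Neo1. Among genes above the median signal, the 5 most like Tjp1 over the 9 arrays were Cpa3 (0.984), a mast cell protease gene, Krt80, Hmga2 (0.982), a chromatin protein, the G protein subunit Gna14 (0.971) and the death-associated kinase Dapk1 (0.970). The 5 most like Gja1 were Hpf1 (0.964), Hebp1 (0.946), Acss2 (0.943), Serpinf1 (0.940) and Snrnp48 (0.933). The 9 arrays fall into 3 groups, which all these correlations share, and no test was made of them.

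Summed signals of some marker lists differed between the groups. The summed deposited signal of 12 megakaryocyte and platelet markers was 16670 to 19560 in RUNX1(41-214), 11550 to 12270 in Runx1KO and 6711 to 7761 in control cells, and 9 of the 12 lay above the median gene. Of these 12, 11 lay above 0 in RUNX1(41-214) and 8 in Runx1KO cells against control, and 5 and 3 rose past the threshold. Beside this and the next lists, 52.5% of all genes lay above 0 in RUNX1(41-214) against control, and 1.73% rose and 2.56% fell past the threshold. In Runx1KO against control 49.2% of all genes lay above 0, and 0.234% rose and 0.113% fell. The sum of 7 mast cell and basophil markers was 5077 to 6068 in RUNX1(41-214), 2603 to 4004 in Runx1KO and 482 to 1330 in control cells, but 4 and 3 of the 7 lay above 0 against control, with medians of 0.15 and -0.09. Cpa3, Hdc and Ms4a2 rose in RUNX1(41-214), Cpa3 alone passed in Runx1KO cells, and the IgE receptor gene Fcer1a was at -1.29 ± 0.53, adjusted p = 0.257 in RUNX1(41-214). The sum of 10 mature lymphocyte markers was 868 to 1059 in RUNX1(41-214), 1273 to 3170 in Runx1KO and 2029 to 3263 in control cells, while 5 and 4 of the 10 lay above 0 against control. Il7r, whose product the sorting gate excludes, and the cytotoxic granule gene Nkg7 were the 2 that fell in RUNX1(41-214) (-3.69 ± 0.51, adjusted p = 0.0015 and -2.43 ± 0.34, adjusted p = 0.00157). The median of the 10 was 0.02 there, and Cd79b, the brightest of them, was at 0.08 ± 0.20, adjusted p = 0.906. The 14 endothelial markers summed to 5173 to 6442 in RUNX1(41-214), 5762 to 9289 in Runx1KO and 4616 to 7097 in control cells, and the 11 stromal markers to 1369 to 1502, 1358 to 1514 and 1227 to 1710. The 10 epithelial markers summed to 1503 to 1695 in RUNX1(41-214), 1881 to 2479 in Runx1KO and 1585 to 3020 in control cells. The 8 erythroid markers summed to 7521 to 9450, 7556 to 10140 and 8030 to 14450, the 11 mature myeloid markers to 11050 to 14410, 9574 to 14140 and 8767 to 12740, and the 10 KSL markers to 24080 to 27820, 25590 to 27270 and 19870 to 24690, in the same order of groups. Single erythroid markers differed more than their sum. Of the 8, 3 lay above 0 in each altered group against control, with differences of -1.38 to 2.91 in RUNX1(41-214). There 2 rose and 1 fell past the threshold, and 0 passed in Runx1KO cells. Against Runx1KO, 2 rose in RUNX1(41-214), where 0.299% of all genes rose. Of the 11 myeloid markers, 9 in RUNX1(41-214) and 5 in Runx1KO cells lay above 0 against control, and 0 passed. The part of these cells in the levels of the 9 genes was not tested.

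The other members of the same families were then examined from 8 lists of junction and adhesion genes, without the 9. They were tested gene by gene in the limma fit across all 12393 genes with Benjamini-Hochberg adjustment. The lists were chosen with earlier results of these data known, so their shares stand beside those of all genes as a description, without a set test. Of 254 listed genes 196 were measured, 187 of them not among the 9, and 24 of the 187 lay above the median gene. In Runx1KO against control 0 rose and 1 fell, 0.535% of the 187 against 0.347% of all genes, and 21 had an unadjusted p under 0.05 (11.2%, against 7.22% of all genes). In RUNX1(41-214) against control 2 rose and 13 fell, 8.02% against 4.28% of all genes, and 37 had an unadjusted p under 0.05 (19.8% against 15.5%). By direction, 1.73% of all genes rose and 2.56% fell there. In RUNX1(41-214) against Runx1KO 0 rose and 3 fell, 1.6% against 1.36%, and 27 had an unadjusted p under 0.05 (14.4% against 10.6%). The medians of the 187 were -0.0467, -0.0345 and -0.00301 on the log2 scale in these 3 comparisons, beside -0.0040, 0.018 and 0.0163 for all genes. Between RUNX1(41-214) and control, the count of genes that fell was 7 without RUNX1(41-214) replicate 2 and 8 without RUNX1(41-214) replicate 3. The count of genes that rose there was 0 without RUNX1(41-214) replicate 1 or 2, and 1 without RUNX1(41-214) replicate 3, control replicate 3 or any 1 Runx1KO array. The count that fell in Runx1KO cells was 0 without control replicate 3 or any 1 Runx1KO array, and 2 without control replicate 2. Counts do not say which genes, and the losses of single genes are given with each list. The shares of all genes given here are also the background for the counts of each list below.

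**Figure D3:**
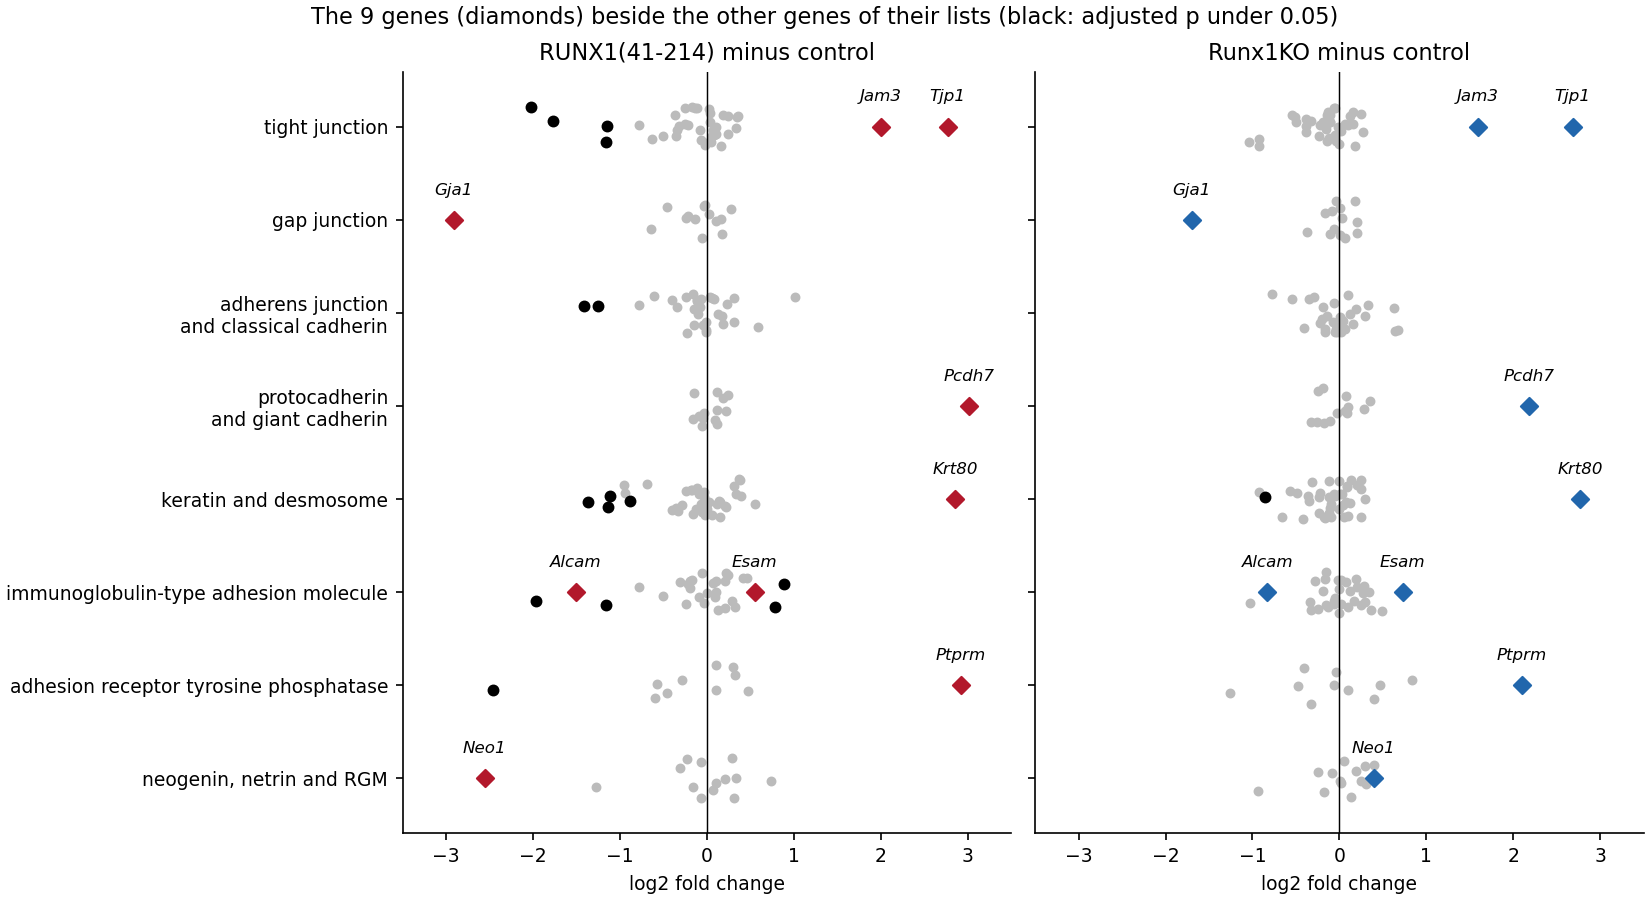
Points give the log2 difference from control of each measured gene of the 8 lists, for RUNX1(41-214) (left) and Runx1KO (right), with diamonds for the 9 genes and black points for other genes past an adjusted p of 0.05. The diamonds of Tjp1, Jam3, Pcdh7, Krt80 and Ptprm lie to the right of every other gene of their lists in both panels, and black points lie mostly to the left of 0. The 9 genes were chosen by their differences on these arrays, so the place of the diamonds is no test.

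In the tight junction list, 0 of the 37 other genes rose and 4 fell in RUNX1(41-214) against control, and 0 changed in Runx1KO against control, where 4 had an unadjusted p under 0.05. Mpdz, a scaffold with many PDZ domains, read 33.9, 23.1 and 14.3 in RUNX1(41-214) cells, 109, 119.9 and 199.8 in Runx1KO cells and 109.9, 109 and 162 in control cells. The RUNX1(41-214) arrays were below all others, and Mpdz fell against control (-1.77 ± 0.29, adjusted p = 0.00439) and against Runx1KO (-1.93 ± 0.29, adjusted p = 0.0061). Its other probe set was at 0.09 and 0.08, and with the mean of both Mpdz did not pass (-0.84 and -0.92, adjusted p = 0.0813 and 0.112).

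Pard6b, an adaptor of the Par polarity complex, read 69.4, 99.0 and 26.7 in RUNX1(41-214) cells, 167, 130.4 and 178 in Runx1KO cells and 359, 206 and 408 in control cells. The 3 groups did not overlap, and it fell in RUNX1(41-214) against control by 2.02 ± 0.38 (adjusted p = 0.00991, limma), but not without control replicate 3 (adjusted p = 0.0514). Its relative Pard6g read 444, 403 and 439 in RUNX1(41-214) cells, 516, 515 and 519 in Runx1KO cells and 1088, 711 and 1251 in control cells. The altered groups lay below control, and Pard6g fell in RUNX1(41-214) (-1.14 ± 0.22, adjusted p = 0.0106, and 0.0539 without RUNX1(41-214) replicate 2), while Runx1KO against control was at -0.93 ± 0.22, adjusted p = 0.124. The dimmer Pard6g probe set was at -0.34 ± 0.19 in RUNX1(41-214) and -0.26 ± 0.19 in Runx1KO cells against control. With both averaged Pard6g still passed in RUNX1(41-214) (-0.74, adjusted p = 0.0442). Patj, a scaffold of the Crumbs complex, fell in RUNX1(41-214) (-1.17 ± 0.27, adjusted p = 0.029) on a pair of probe sets at -1.17 and -0.83. It did not pass without control replicate 1 or 3 (adjusted p = 0.0876 and 0.118) or without RUNX1(41-214) replicate 2 or 3 (0.091 and 0.107). The brightest genes of the list, Ybx3 and F11r, the JAM-A gene, were at 0.02 ± 0.13, adjusted p = 0.97 and -0.11 ± 0.24, adjusted p = 0.892 in RUNX1(41-214), and the endothelial claudin Cldn5 was at -1.04 ± 0.20, adjusted p = 0.0562 in Runx1KO cells.

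Among adherens junction and classical cadherin genes, 2 of 31 fell in RUNX1(41-214) against control, 1 fell against Runx1KO, and 0 changed in Runx1KO against control, where 5 had an unadjusted p under 0.05. Nectin3, an immunoglobulin-type molecule that joins cadherin contacts through afadin, read 13.0, 7.68 and 6.99 in RUNX1(41-214) cells, 53.8, 30.8 and 72.7 in Runx1KO cells and 54.5, 59.0 and 46.2 in control cells. RUNX1(41-214) cells were lowest without overlap, and the fall was -1.41 ± 0.23, adjusted p = 0.00461 against control and -1.38 ± 0.23, adjusted p = 0.0124 against Runx1KO. Of its 5 probe sets, 2 were below control by more than their errors (-1.41 and -0.87), the mean of all did not pass (-0.43, adjusted p = 0.102), and the call against Runx1KO was lost without Runx1KO replicate 1 (adjusted p = 0.0542), RUNX1(41-214) replicate 2 (0.0691) or RUNX1(41-214) replicate 3 (0.0602). Lmo7, an afadin-binding protein, fell in RUNX1(41-214) (-1.25 ± 0.26, adjusted p = 0.0163), but not without control replicate 1 (adjusted p = 0.0647) or RUNX1(41-214) replicate 3 (0.0715). Its 1 probe set was dim, at 15.1, 14.5 and 5.67 in RUNX1(41-214) cells, 37.4, 10.55 and 23.5 in Runx1KO cells and 52.5, 63.1 and 41.0 in control cells. The catenins Ctnnb1 and Ctnna1, the brightest of the list, were at -0.16 ± 0.10, adjusted p = 0.5 and 0.18 ± 0.12, adjusted p = 0.525.

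No other gap junction gene passed the test in limma's fit: 0 of 13 in each comparison, with 0, 1 and 1 at an unadjusted p under 0.05 in Runx1KO and RUNX1(41-214) against control and RUNX1(41-214) against Runx1KO. Panx1, the channel protein pannexin 1 and the 1 gene of these above the median, was at 9.57 in RUNX1(41-214) cells, 9.86 in Runx1KO cells and 10.03 in control cells on the log2 scale. The next brightest, Gjd2, a connexin of neurons, was at 5.57 in RUNX1(41-214) cells, 5.48 in Runx1KO cells and 5.30 in control cells. Nor did any of the 13 other protocadherin and giant cadherin genes pass, with 1, 0 and 1 at an unadjusted p under 0.05 in the same order of comparisons. In that list the brightest were the planar polarity cadherins Celsr1 and Celsr2, at 0.22 ± 0.27, adjusted p = 0.785 and -0.03 ± 0.23, adjusted p = 0.972 in RUNX1(41-214) against control. In Runx1KO against control the lowest p values of the list were those of Celsr3 and Cdhr1 (0.35 ± 0.15, adjusted p = 0.629 and -0.33 ± 0.16, adjusted p = 0.71).

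In the keratin and desmosome list, 0 of the 39 genes beside Krt80 rose, and 4 fell in RUNX1(41-214) and 1 in Runx1KO against control. Between RUNX1(41-214) and Runx1KO 0 changed, and 11 of the 39 had an unadjusted p under 0.05, where 10.6% of all genes had one. Dsc2, the desmosomal cadherin desmocollin 2, read 4.47, 4.94 and 3.18 in RUNX1(41-214) cells, 4.41, 5.18 and 4.29 in Runx1KO cells and 17.1, 27.6 and 22.4 in control cells. These signals were low everywhere, with both altered groups below control, and Dsc2 fell by 0.89 ± 0.13 (adjusted p = 0.00204, limma) in RUNX1(41-214) and 0.85 ± 0.13 (adjusted p = 0.0172) in Runx1KO cells. The Runx1KO call was lost without control replicate 3 (adjusted p = 0.0658) or Runx1KO replicate 1, 2 or 3 (0.0616, 0.0702 and 0.0896). Averaged over its probe sets, Dsc2 passed in neither group (adjusted p = 0.066 in RUNX1(41-214) and 0.27 in Runx1KO cells).

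The plakin gene Evpl (-1.11 ± 0.21, adjusted p = 0.0109), the simple-epithelium keratin Krt8 (-1.37 ± 0.31, adjusted p = 0.0297) and the junctional plaque gene Pkp4 (-1.14 ± 0.26, adjusted p = 0.0298) fell in RUNX1(41-214) against control. Krt8 read 17.6, 34.8 and 45.4 in RUNX1(41-214) cells, 58.0, 59.7 and 35.2 in Runx1KO cells and 85.6, 189.8 and 85.6 in control cells, without overlap between RUNX1(41-214) and control, and its 3 probe sets were at -1.37, -1.29 and -1.02. Evpl, with 1 dim probe set, read 12.6, 24.7 and 33.3 in RUNX1(41-214) cells, 45.3, 37.5 and 30.5 in Runx1KO cells and 80.9, 68.0 and 66.6 in control cells. It did not pass without RUNX1(41-214) replicate 1 (adjusted p = 0.0532). Krt8 did not pass without control replicate 2 (0.0572), Runx1KO replicate 1 (0.0505), RUNX1(41-214) replicate 1 (0.143) or RUNX1(41-214) replicate 2 (0.0855). Pkp4 did not pass without control replicate 1 or 3 (0.0951 and 0.121) or RUNX1(41-214) replicate 1, 2 or 3 (0.0822, 0.129 and 0.0852). Its other probe set, nearly as bright, was at -0.52 ± 0.35, and with both averaged Pkp4 did not pass (-0.83, adjusted p = 0.139). Krt18, the partner keratin of Krt8, was bright at 10.42 in RUNX1(41-214) cells, 10.87 in Runx1KO cells and 10.83 in control cells and did not pass, nor did vimentin, Vim, the usual filament of blood cells (0.38 ± 0.10, adjusted p = 0.069).

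Among 31 other immunoglobulin-type adhesion genes, 2 rose and 2 fell in RUNX1(41-214) against control, 1 fell against Runx1KO and 0 changed in Runx1KO against control, where 1 had an unadjusted p under 0.05. Cadm1, a nectin-like molecule that binds the lymphocyte receptor CRTAM, read 24.6, 40.1 and 36.6 in RUNX1(41-214) cells, 105, 153 and 177 in Runx1KO cells and 162, 155 and 255 in control cells. RUNX1(41-214) cells were lowest without overlap, and the fall was -1.96 ± 0.26, adjusted p = 0.00134 against control and -1.62 ± 0.26, adjusted p = 0.0109 against Runx1KO. All 4 probe sets of Cadm1 lay below control, at -2.11 to -0.65, and the call against Runx1KO was lost without Runx1KO replicate 2 (adjusted p = 0.0519) or RUNX1(41-214) replicate 1 (0.0574).

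Cd96, a receptor for the nectin-like molecule PVR, fell in RUNX1(41-214) (-1.16 ± 0.25, adjusted p = 0.0224), and was at -1.03 ± 0.25, adjusted p = 0.141 in Runx1KO cells. Its call in RUNX1(41-214) was lost without control replicate 1 or 3 (0.0711 and 0.0871) or RUNX1(41-214) replicate 1, 2 or 3 (0.0505, 0.0934 and 0.0841, adjusted p). Icam4, the red cell adhesion molecule of the LW blood group, read 1082, 1130.4 and 1206 in RUNX1(41-214) cells, 882, 816 and 703 in Runx1KO cells and 480.5, 729 and 671 in control cells. It rose in RUNX1(41-214) (0.89 ± 0.18, adjusted p = 0.0151), without overlap with either other group, but not without RUNX1(41-214) replicate 1, 2 or 3 (0.0575, 0.0756 and 0.0617). L1cam, a neural cell adhesion molecule also made by some blood cells, rose by 0.79 ± 0.19 (adjusted p = 0.0439, limma), and lost its call without any 1 of the 9 arrays (adjusted p from 0.0567 to 0.133). With its probe sets averaged L1cam did not pass either (0.47, adjusted p = 0.0709). The brightest of the list, Cd47, the signal against engulfment, was at 0.46 ± 0.12, adjusted p = 0.0577, and Icam2 at 0.24 ± 0.19, adjusted p = 0.608.

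Of the 10 other adhesion receptor phosphatases, 1 fell in RUNX1(41-214) against control and 0 changed in the other comparisons, where 3 (Runx1KO against control) and 1 (RUNX1(41-214) against Runx1KO) had an unadjusted p under 0.05. Ptprf, the phosphatase LAR of a related branch, read 17.6, 13.3 and 6.41 in RUNX1(41-214) cells, 62.9, 27.4 and 68.8 in Runx1KO cells and 158, 52.2 and 347 in control cells. RUNX1(41-214) cells were lowest without overlap, and the fall was -2.47 ± 0.49, adjusted p = 0.014. Of its 3 probe sets, 2 lay below control (-2.47 and -1.87) and the dimmest was at -0.11. The call was lost without control replicate 1 (adjusted p = 0.0627) or RUNX1(41-214) replicate 2 or 3 (0.0539 and 0.0621). The brightest phosphatases, Ptprs and Ptprj, were at -0.59 ± 0.20, adjusted p = 0.162 and 0.32 ± 0.40, adjusted p = 0.786.

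Among 13 other genes of the neogenin, netrin and repulsive guidance list, 0 changed in limma's fit in any of the 3 comparisons, with 2, 2 and 1 at an unadjusted p under 0.05. Bmpr2, the type II receptor of bone morphogenetic proteins, was at 6.50 in RUNX1(41-214) cells, 6.83 in Runx1KO cells and 7.78 in control cells, a difference of -1.27 ± 0.33, adjusted p = 0.0555 in RUNX1(41-214) against control. The netrin relative Ntng2 was at 0.74 ± 0.19, adjusted p = 0.0513 in the same comparison. It was dim, at 5.26 in RUNX1(41-214) cells, 4.77 in Runx1KO cells and 4.53 in control cells, where the median gene was at 7.95. Both lay close to the threshold without passing it.

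**Figure D4:**
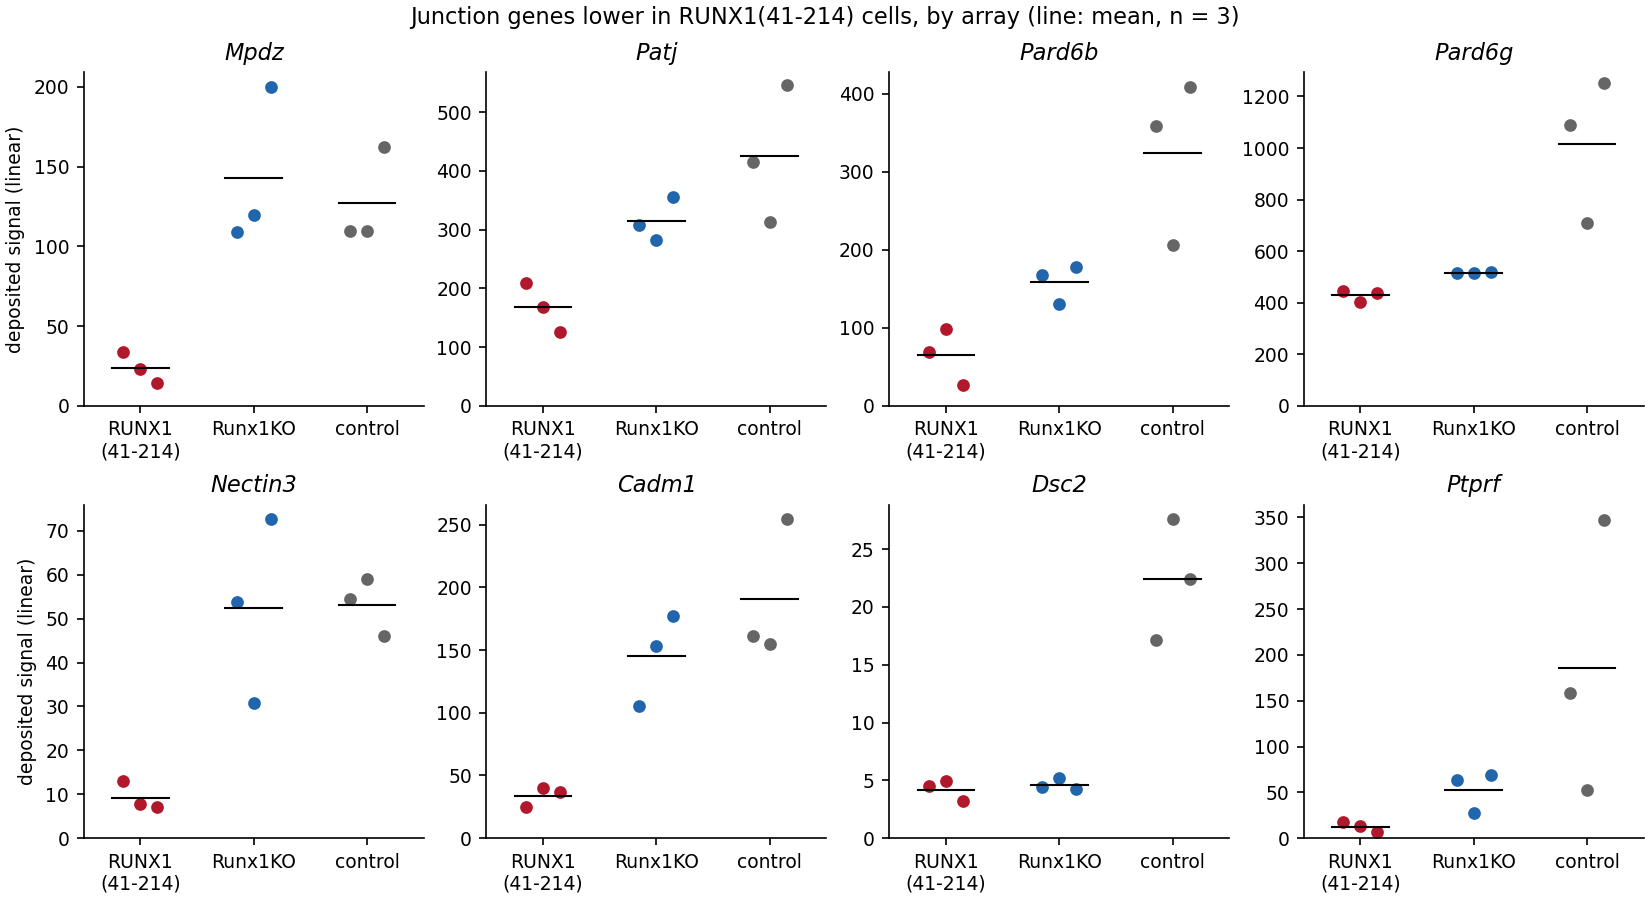
Points give the deposited linear signal of 8 junction genes outside the 9 on each array, with a line at the mean of 3 arrays. For Mpdz, Nectin3 and Cadm1 the RUNX1(41-214) arrays lie below both other groups, and for Pard6g and Dsc2 both altered groups lie below control.

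The nearest measured gene on either side of each of the 9 was also compared, a set of 18 genes added after the other results were seen. In limma's fit 0 of the 18 passed in each comparison, with 0, 2 and 2 at an unadjusted p under 0.05 in Runx1KO against control, RUNX1(41-214) against control and RUNX1(41-214) against Runx1KO. Krt7, the keratin gene next to Krt80, was at -0.95 ± 0.24, adjusted p = 0.0504 in RUNX1(41-214) against control, where Krt80 was higher. Vsig2 and Msantd2, which flank Esam, were at -0.41 ± 0.27, adjusted p = 0.532 and 0.37 ± 0.23, adjusted p = 0.505.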

How the data were processed

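RNA from sorted KSL cells was measured on 9 arrays. Per the labels, Qiagen microcolumns served for isolation and the Affymetrix two-cycle procedure for biotin labelling. The deposited unit is a linear signal intensity for each probe set. Its summarisation, scaling and genome build were not given in the sources used here. After 64 control probe sets were set aside, 22626 probe sets were converted to log2(signal + 16) and quantile normalized, since array medians spanned 0.211 (limit 0.2). Each of 12393 genes was represented by its brightest probe set on average, named from the platform annotation, and 20380 probe sets named 1 gene, 691 several and 1555 none. The 3 group means were estimated jointly over the arrays by lmFit and eBayes with a trend (limma 3.58.1, R 4.3.3). Tests were two-sided, adjusted by Benjamini-Hochberg over the 12393 genes of a contrast, with a threshold of 0.05. Dimmer probe sets were fitted among all 22626. The labels do not say whether replicates came from separate mice. The number of arrays limits precision, with a median standard error of 0.20 (log2). The procedure was also run on simulated data, whose outcome is not given here, so nothing on the reliability of the calls is read from it.

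The 9 genes and the lists were chosen with earlier results of these data known. Named genes are the 9 and others drawn by a rule. Per list and comparison it took the genes past the threshold, up to 4 a direction, or the 2 with the lowest p. It also took the 2 brightest per list. Not all of these are named: several genes with the lowest p that did not pass are left out, as is the bright Acvr2a. Of markers, Kit and only some of the brightest were named. Epcam, Cdh5, Il7r, Nkg7, Ms4a2, Fcer1a and the neighbouring genes were named after their values were seen. Promoters came from RefSeq. Alternatives were other normalizations, offsets of 1 and 50, no dim genes, other uses of probe sets, fewer arrays, array weights and a replicate block.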

Additional observations from a re-analysis of the deposited data

How the results depend on the processing

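The counts of other junction and adhesion genes past the threshold were 0 higher and 1 lower in Runx1KO against control, 2 and 13 in RUNX1(41-214) against control, and 0 and 3 in RUNX1(41-214) against Runx1KO. With dim genes left out the lower counts were 0, 3 and 0. The lower count of 1 in Runx1KO was 2 without quantile normalization, with arrays scaled to a common median or with an offset of 50, and 0 with only the 6 arrays of both groups. The higher count of 2 in RUNX1(41-214) against control was 1 without quantile normalization, with all probe sets tested, with probe sets averaged or with 6 arrays, 4 with a common median and 5 with array weights. In RUNX1(41-214) against Runx1KO, 0 higher became 1 with a common median and 3 lower became 1 with probe sets averaged. The cause was not tested. Leaving out 1 array at a time gave 0 higher and 0 to 2 lower in Runx1KO against control, 0 to 3 higher and 7 to 14 lower in RUNX1(41-214) against control, and 0 higher and 2 to 3 lower in RUNX1(41-214) against Runx1KO.

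Without control replicate 2 and Runx1KO replicate 3 together, the counts were 0 and 1, 3 and 15, and 0 and 3. With a replicate block the counts were 0 and 1, 3 and 13, and 0 and 3 in the same order. Same-numbered arrays correlated at -0.174 to 0.418 in their deviations, with 3 of 9 arrays closest to their own number. Between Runx1KO and control the values were 0.027, 0.409 and 0.418 for replicates 1, 2 and 3. The replicate number was not taken as a pairing, and the replicate block was fitted as an alternative. For the 9 genes, 27 differences were recomputed under 20 settings: 508 values moved by less than the spread between replicates, 20 by more, and 0 of those past the threshold turned round. Signal over background limits the dim genes, since no detection calls were used here.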
